A study of Homo sapiens with 15 samples.

Results

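Keratins, uroplakins, kallikreins, small proline-rich proteins and desmosomal genes, which build or remodel epithelial sheets, were examined in RNA sequencing counts of 2 gastric cancer cell lines. Members were taken by gene symbol from the protein-coding genes of each line: the numbered keratins (KRT), uroplakins (UPK), kallikrein-related peptidases (KLK), small proline-rich proteins (SPRR), desmogleins (DSG) and desmocollins (DSC), together with DSP, JUP, PKP1, PKP2, PKP3, PPL, EVPL and IVL. The NCI-N87 table listed 52 members among 18473 genes and that of SNU-484 held 22 among 18346, which makes 54 members of the 21560 genes listed in either table, with 20 in both. The families were chosen by their differences between T-DXd and vehicle in NCI-N87 cells, which were known when they were proposed and in which UPK2, KRT13 and KLK5 stood high. For every comparison whose difference is taken from the T-DXd libraries of NCI-N87 cells the values are therefore a description, and no p-value is given for a member. Trastuzumab against vehicle and the vehicle-treated lines against each other share the NCI-N87 vehicle libraries with that choice. The NCI-N87 T-DXd libraries also entered their fits. P-values for members are given there but are not independent of the choice. The rule is a list of symbols and has no threshold, but it reaches only the genes listed for a line. The lowest count of a listed gene was 1 in every library. A gene without counts in some library of a line could therefore not be a member there.

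NCI-N87, a gastric carcinoma line with amplified HER2, was treated with T-DXd, trastuzumab or vehicle, and SNU-484, a gastric adenocarcinoma line with low HER2, with T-DXd or vehicle. Both lines are labelled wild type, and each is 1 cell line. T-DXd is trastuzumab, the antibody that binds HER2, carrying the topoisomerase I inhibitor DXd. Each drug was given at 1 µg/ml for 72 h, and the vehicle was an acetate buffer with sorbitol. Each of the 5 groups had 3 libraries, called biological replicates in the labels, and 46666533 to 66581448 counts per library. The SNU-484 controls are labelled vehicle, but iso appears in their column names, and a difference in control treatment between the lines cannot be told from the labels. RNA came from whole cultures, in which fewer cells of a type and less RNA per cell cannot be told apart.

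The labels were set against marker genes. All 6 epithelial markers looked for (EPCAM, CDH1, CLDN4, CLDN7, ELF3 and ESRP2) were listed in NCI-N87 cells, where their summed level was 1793 to 2005 CPM (counts scaled by library size within each line). In SNU-484 cells ELF3 was not listed, and the other 5 summed to 17.6 to 24.4 CPM, most of it CLDN7. All 6 mesenchymal markers and all 6 fibroblast markers were listed there, at 788 to 870 CPM and 1459 to 1861 CPM, led by VIM and COL3A1. These lists were not uniform. The mesenchymal marker FN1 measured 0.4465 to 2.7 CPM in SNU-484 cells against 21.3 to 65.3 CPM in NCI-N87 cells. The fibroblast markers DCN and PDGFRB measured 3.40 to 6.52 and 0.313 to 0.658 CPM in SNU-484 cells. Of the squamous basal markers, SOX2 measured 479 to 511 CPM there and TP63 0.0798 to 0.255 CPM. The leukocyte gene PTPRC measured 73.6 to 129 CPM in SNU-484 cells, while CD3E was not listed. The epithelial identity of the libraries labelled SNU-484 therefore rests on few transcripts, and their part in the results was not tested.

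Keratins are intermediate filament proteins that assemble as pairs of a type I and a type II chain. KRT8 and KRT18 are the pair of simple, single-layered epithelia such as the gastric gland, with KRT7, KRT19 and KRT20 alongside. Stratified epithelia replace them with KRT5 and KRT14 in the basal layer, KRT10 above it in skin, KRT4 and KRT13 in the oesophagus and other internal linings, and KRT6 and KRT16 in regenerating tissue. Uroplakins are membrane proteins that form plaques on the surface of the urothelium. Kallikrein-related peptidases are secreted serine proteases, some of which cut desmosomal proteins when the outer skin is shed. Desmosomes tie neighbouring cells together through the cadherins DSG and DSC, the linkers JUP and PKP, and DSP, which anchors keratin filaments. IVL, the SPRR proteins, PPL and EVPL are precursors of the cornified envelope, the protein shell of terminally differentiated squamous cells.

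Upstream sequences are shown for members that lie in one gene cluster or are near copies, because their values are set against each other in the results. RefSeq (GRCh38.p14) gave a sequence for 31 of the 54 members, and the 250 bases before the start are printed 5′ to 3′ on the gene's strand. UPK2 and KRT13 were not among the 31, so the motif counts do not cover them. Capitals mark matches on either strand to TATAAA (the TATA box), TGANTCA (the AP-1 site), AACCGGTT (a Grainyhead site) or GGGCGG (the GC box), and no matches overlapped in the sequences shown. The cornified envelope genes IVL (chr1:152908296-152908545, plus strand), SPRR1A (chr1:152983831-152984080, plus strand) and SPRR3 (chr1:153001499-153001748, plus strand) lie in one cluster.
IVL: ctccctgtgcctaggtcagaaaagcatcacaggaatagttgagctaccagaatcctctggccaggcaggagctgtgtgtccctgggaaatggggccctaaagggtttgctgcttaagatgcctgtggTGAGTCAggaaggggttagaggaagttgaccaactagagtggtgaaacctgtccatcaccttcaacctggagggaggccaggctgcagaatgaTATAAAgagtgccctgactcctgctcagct
SPRR1A: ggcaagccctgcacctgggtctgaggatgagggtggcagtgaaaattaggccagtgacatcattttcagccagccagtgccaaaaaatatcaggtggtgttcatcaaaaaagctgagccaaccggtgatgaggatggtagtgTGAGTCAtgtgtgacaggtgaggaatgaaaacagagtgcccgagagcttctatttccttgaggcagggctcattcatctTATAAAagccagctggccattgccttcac
SPRR3: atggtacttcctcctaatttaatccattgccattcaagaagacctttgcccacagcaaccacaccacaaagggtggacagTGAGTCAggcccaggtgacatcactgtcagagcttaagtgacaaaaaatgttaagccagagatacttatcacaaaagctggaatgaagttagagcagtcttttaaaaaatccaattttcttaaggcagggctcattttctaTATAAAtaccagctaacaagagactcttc
All 3 hold TGANTCA, and they are the members with this match out of 31, while 6.57% of 27305 promoters of the same length hold it. TATAAA was found in these 3 and in KRT10 and UPK1A, against 11.2% of all promoters.

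The neighbouring kallikrein genes KLK5 (chr19:50953039-50953288, minus strand) and KLK6 (chr19:50969592-50969841, minus strand) are shown because the first had the largest change of its family and the other the highest level.
KLK5: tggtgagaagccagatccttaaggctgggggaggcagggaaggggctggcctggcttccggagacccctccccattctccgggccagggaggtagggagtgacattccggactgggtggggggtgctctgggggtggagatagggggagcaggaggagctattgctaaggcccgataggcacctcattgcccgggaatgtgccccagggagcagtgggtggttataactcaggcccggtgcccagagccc
KLK6: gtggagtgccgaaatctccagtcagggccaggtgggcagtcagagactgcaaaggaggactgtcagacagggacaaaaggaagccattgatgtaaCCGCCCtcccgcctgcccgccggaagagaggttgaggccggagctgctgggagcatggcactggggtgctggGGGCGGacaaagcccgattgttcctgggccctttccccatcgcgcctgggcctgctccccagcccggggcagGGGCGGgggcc
KLK5 holds none of these motifs in the window, and KLK6 holds GGGCGG at 3 places. GGGCGG occurred in 11 of the 31 members and in 42.2% of all promoters, and AACCGGTT in none of the members and in 0.103% of all promoters. The near-identical copies UPK3BL1 (chr7:102642792-102643041, minus strand) and UPK3BL2 (chr7:102543697-102543946, minus strand) share an unbroken run of 240 of their 250 bases and hold none of these motifs.
UPK3BL1: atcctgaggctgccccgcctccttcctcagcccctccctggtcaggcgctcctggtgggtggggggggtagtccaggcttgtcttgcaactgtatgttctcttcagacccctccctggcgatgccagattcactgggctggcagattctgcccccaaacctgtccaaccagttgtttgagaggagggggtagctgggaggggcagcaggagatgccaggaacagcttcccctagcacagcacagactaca
UPK3BL2: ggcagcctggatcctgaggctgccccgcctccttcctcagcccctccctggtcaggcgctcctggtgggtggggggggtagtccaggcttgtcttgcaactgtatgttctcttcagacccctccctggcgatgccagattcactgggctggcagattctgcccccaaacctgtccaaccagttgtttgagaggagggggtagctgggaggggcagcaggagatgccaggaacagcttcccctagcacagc

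Treatment of NCI-N87 cells with T-DXd gave higher levels of most keratins, kallikreins, uroplakins and cornified envelope genes than vehicle, while the desmosomal genes showed no common direction. Of the 52 members, all of which passed the filter on low counts, 31 were higher and 7 lower with T-DXd at an adjusted p under 0.05. In this comparison 58.6% of all 17394 genes tested met that threshold, 29.1% higher and 29.5% lower. The median log2 fold change was 0.36 over the members and -0.01 over all genes tested. Together the members took 1.75 to 1.80% of the counts in T-DXd libraries, 1.38 to 1.42% in trastuzumab libraries and 1.42 to 1.43% in vehicle libraries.

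**Figure D1:**
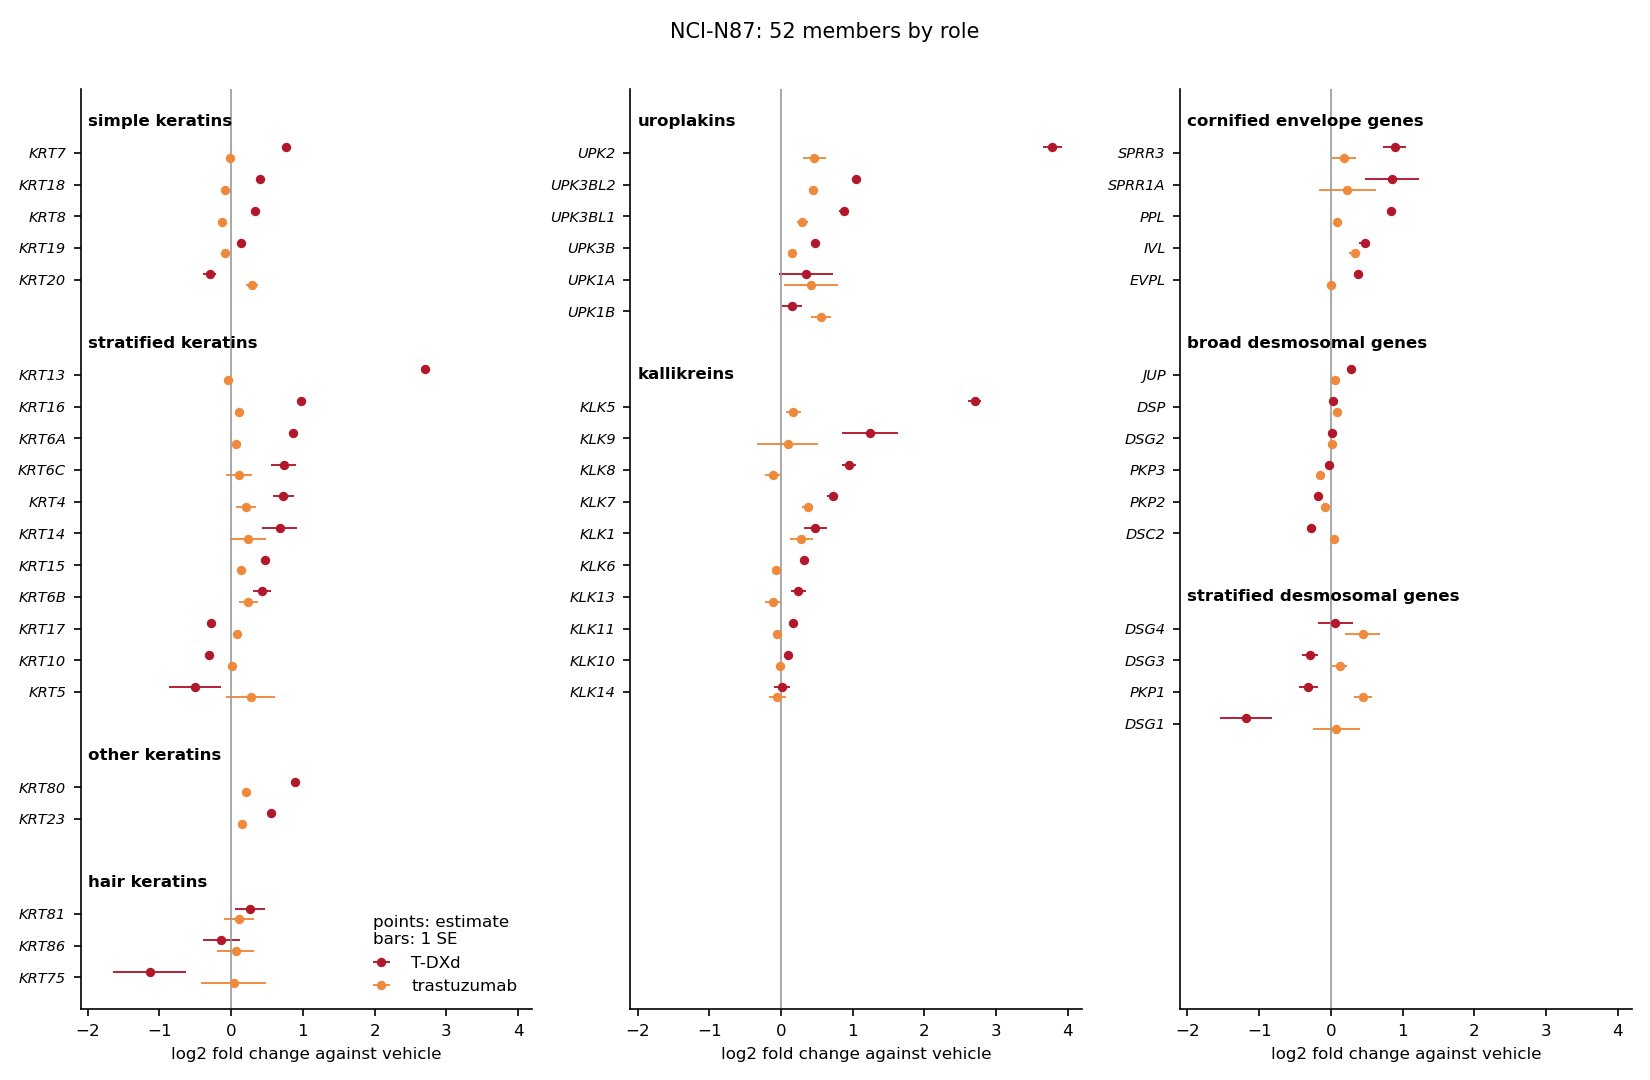
Log2 fold change against vehicle (horizontal axis, points with bars of 1 SE) of the 52 members in NCI-N87 cells, by role, for T-DXd (red) and trastuzumab (orange). With T-DXd, UPK2, KRT13 and KLK5 lie beyond 2.6 and KLK9 and UPK3BL2 between 1.0 and 1.3, while the desmosomal genes lie on both sides of 0.

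The simple keratins were the most abundant members. KRT8, the type II chain of the simple pair, measured 5103, 5158 and 5315 CPM in T-DXd libraries, 3783, 3768 and 3797 CPM in trastuzumab libraries, and 4180, 4106 and 4135 CPM in vehicle libraries. Its partner KRT18 measured 2503, 2429 and 2481 CPM in T-DXd libraries, 1771, 1747 and 1748 CPM in trastuzumab libraries, and 1893, 1850 and 1856 CPM in vehicle libraries. For both genes the groups did not overlap, with T-DXd highest and trastuzumab lowest. The log2 fold change with T-DXd was 0.33 ± 0.01 (SE) for KRT8 and 0.40 ± 0.02 for KRT18, whose annotated spans overlap on chromosome 12. KRT7, a simple keratin of ducts, differed more, at 962, 947 and 1013 CPM in T-DXd libraries against 582, 571 and 576 CPM in vehicle libraries (log2 fold change 0.76 ± 0.03). KRT19, the smallest type I keratin, differed less, at 2581, 2606 and 2702 CPM in T-DXd libraries against 2386, 2365 and 2394 CPM in vehicle libraries (0.14 ± 0.02). KRT20, a keratin of gastric and intestinal surface cells, was the exception in this group, with 7.57, 6.87 and 7.70 CPM in T-DXd libraries against 8.79, 8.91 and 9.54 CPM in vehicle libraries (-0.30 ± 0.09). Thus 4 of 5 simple keratins were higher and KRT20 lower.

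Among the stratified keratins, KRT13, the type I keratin of non-cornifying stratified linings (chromosome 17, 41500981 to 41505612, RefSeq positions on GRCh38.p14), stood apart. It measured 117, 125 and 120 CPM in T-DXd libraries, 18.8, 17.8 and 17.3 CPM in trastuzumab libraries, and 17.9, 19.5 and 18.1 CPM in vehicle libraries. Every T-DXd library lay above all others, a 6.52-fold difference from vehicle (log2 fold change 2.70 ± 0.04), while trastuzumab and vehicle overlapped. Its usual partner KRT4 was scarcer and differed less, at 3.33, 4.35 and 3.80 CPM in T-DXd libraries against 2.20, 2.50 and 2.23 CPM in vehicle libraries (0.73 ± 0.14). Per kilobase of transcript, KRT13 averaged 65.6 ± 2.40 CPM per kb and KRT4 1.79 ± 0.24 in T-DXd libraries, and KRT13 10.1 ± 0.46 and KRT4 1.08 ± 0.08 in vehicle libraries (SD, n = 3).

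The pair of regenerating epithelium was higher on both sides. KRT16, its type I chain, measured 29.3, 30.1 and 29.0 CPM in T-DXd libraries against 14.6, 15.5 and 14.95 CPM in vehicle libraries (log2 fold change 0.97 ± 0.05). KRT6A, its type II chain, measured 42.7, 35.9 and 41.0 CPM in T-DXd libraries against 22.4, 21.5 and 21.7 CPM in vehicle libraries (0.87 ± 0.06). KRT6A, KRT6B and KRT6C share between 26.2 and 42.5% of their 75-base stretches with another member, so counts of each alone are uncertain. Summed over these 3 genes, the log2 fold change was 0.82 ± 0.05.

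The basal pair was near the limit of detection. KRT14 measured 1.09, 1.02 and 1.495 CPM in T-DXd libraries against 0.593, 1.06 and 0.620 CPM in vehicle libraries, which overlap, and without vehicle replicate 1, vehicle replicate 3 or T-DXd replicate 3 it no longer met the threshold (log2 fold change 0.49 to 0.55). KRT5 measured 0.277, 0.306 and 0.309 CPM in T-DXd libraries against 0.209, 0.577 and 0.486 CPM in vehicle libraries, which overlap. It met the threshold, as lower, only without vehicle replicate 1 among the libraries left out in turn (log2 fold change -0.83, against -0.50 ± 0.36 with all libraries). KRT15, another basal keratin, was more abundant and higher with T-DXd, at 58.3, 58.5 and 57.0 CPM against 41.4, 40.9 and 42.6 CPM in vehicle libraries (0.48 ± 0.04).

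KRT17 and KRT10 were lower with T-DXd. KRT17, a keratin of basal cells and appendages, measured 254, 235 and 264 CPM in T-DXd libraries against 310, 296 and 310 CPM in vehicle libraries (log2 fold change -0.28 ± 0.04). KRT10, the type I keratin of cornifying skin, measured 41.5, 40.2 and 40.8 CPM in T-DXd libraries against 50.1, 50.9 and 51.0 CPM in vehicle libraries (-0.31 ± 0.03), and its partner KRT1 is not listed. Neither gene's groups overlapped. In all, 8 of 11 stratified keratins were higher and 2 lower.

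The makeup of the keratin pool moved little, since the abundant members carried it. Summed per kilobase over 21 keratins, the level was 5983 ± 120 CPM per kb in T-DXd libraries, 4539 ± 13.3 in trastuzumab libraries and 4784 ± 39.8 in vehicle libraries (SD, n = 3). Simple keratins made up 91.8 ± 0.15% of it in T-DXd libraries and 92.3 ± 0.09% in vehicle libraries, and stratified keratins 4.63 ± 0.06% and 4.87 ± 0.05% in the same order of groups. Within the stratified keratins, KRT13 made up 23.7 ± 1.41% of the summed level in T-DXd libraries and 4.33 ± 0.27% in vehicle libraries, and KRT17 49.4 ± 1.66% in T-DXd libraries and 71.4 ± 0.78% in vehicle libraries. The 11 type II keratins made up 41.6 ± 0.23% of the pool in T-DXd libraries, 37.9 ± 0.01% in trastuzumab libraries and 38.5 ± 0.07% in vehicle libraries. The shares depend on the transcript length used, which the SDs do not cover. KRT8 has 2862 bases in its longest transcript and 6881 in its merged exons, and KRT7 1625 and 3999.

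Other keratins were higher or at low levels. KRT80, an epithelial type II keratin, measured 206, 202 and 211 CPM in T-DXd libraries against 111, 108 and 115 CPM in vehicle libraries (log2 fold change 0.89 ± 0.03). KRT23, a type I keratin, measured 355, 335 and 363 CPM in T-DXd libraries against 241, 233 and 241 CPM in vehicle libraries (0.56 ± 0.03). The hair keratins KRT81 and KRT86, and the hair follicle keratin KRT75 grouped with them, stayed at 0.0680 to 1.61 CPM in all NCI-N87 libraries, and none met the threshold. KRT81 and KRT86 share 33.0 and 28.2% of their 75-base stretches with each other, and the annotated span of KRT81 lies within that of KRT86.

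Uroplakins held the largest increase of any member. UPK2, a small plaque protein (chromosome 11, 118956298 to 118958559), measured 16.2, 16.8 and 19.3 CPM in T-DXd libraries, 1.52, 1.56 and 2.08 CPM in trastuzumab libraries, and 1.03, 1.42 and 1.34 CPM in vehicle libraries. Every T-DXd library lay above all others by a wide margin, a 13.8-fold difference from vehicle (log2 fold change 3.79 ± 0.14). UPK3B, a relative of the plaque protein UPK3A, measured 41.9, 46.9 and 44.03 CPM in T-DXd libraries against 31.9, 33.7 and 29.8 CPM in vehicle libraries (0.48 ± 0.05), and these groups did not overlap. UPK1B, a tetraspanin that pairs with UPK3A in the plaque, measured 2.85, 3.04 and 2.49 CPM in T-DXd libraries, 3.49, 4.42 and 3.30 CPM in trastuzumab libraries, and 2.62, 2.48 and 2.46 CPM in vehicle libraries. UPK1A, the tetraspanin partner of UPK2, stayed at 0.173 to 0.381 CPM throughout. So UPK2 stood high while the tetraspanin with which it pairs did not meet the threshold (0.35 ± 0.37).

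UPK3BL1 and UPK3BL2 share 76.1 and 75.6% of their 75-base stretches with each other, so they are best read together. UPK3BL1 measured 43.5, 44.2 and 50.7 CPM in T-DXd libraries, 29.4, 30.0 and 32.6 CPM in trastuzumab libraries, and 23.0, 23.5 and 28.6 CPM in vehicle libraries. UPK3BL2 measured 34.5, 38.6 and 39.9 CPM in T-DXd libraries, 24.6, 25.6 and 24.6 CPM in trastuzumab libraries, and 18.5, 17.5 and 18.8 CPM in vehicle libraries. For both copies T-DXd was highest, trastuzumab intermediate and vehicle lowest, without overlap. With the counts of both added, the log2 fold change was 0.95 ± 0.06 with T-DXd. In all, 4 of 6 uroplakins were higher with T-DXd and none lower.

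**Figure D2:**
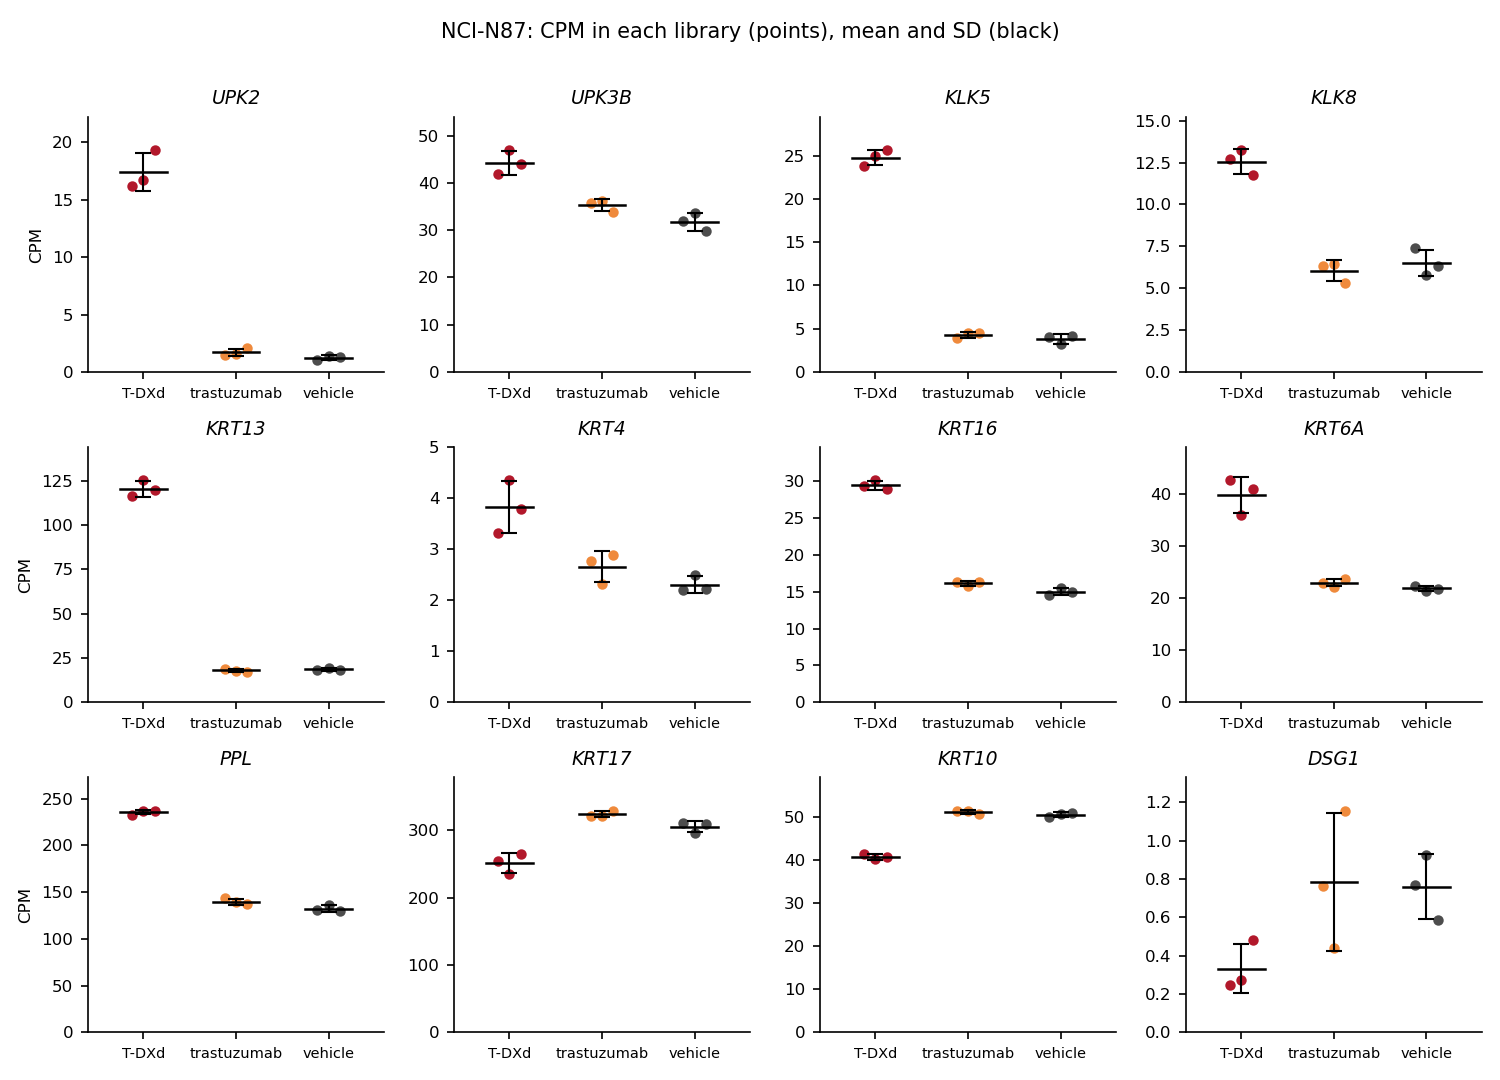
CPM (vertical axis, from 0) of 12 members in each NCI-N87 library, with the mean and SD of 3 libraries in black, for T-DXd, trastuzumab and vehicle. UPK2, KLK5 and KRT13 are high in T-DXd libraries alone (16.2 to 19.3, 23.8 to 25.6 and 117 to 125 CPM), while KRT17, KRT10 and DSG1 have their lowest means with T-DXd.

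Of the 10 kallikreins 8 were higher with T-DXd and none lower. KLK5, a trypsin-like protease that activates other kallikreins in skin (chromosome 19, 50943303 to 50953038), measured 23.8, 24.9 and 25.6 CPM in T-DXd libraries, 3.89, 4.48 and 4.52 CPM in trastuzumab libraries, and 4.01, 3.19 and 4.21 CPM in vehicle libraries. T-DXd libraries lay far above both other groups, which overlapped, a 6.49-fold difference from vehicle (log2 fold change 2.70 ± 0.09). KLK7, a chymotrypsin-like protease that KLK5 activates in skin, measured 14.7, 12.5 and 13.7 CPM in T-DXd libraries, 10.6, 11.1 and 10.3 CPM in trastuzumab libraries, and 8.37, 8.64 and 7.81 CPM in vehicle libraries (0.72 ± 0.08 with T-DXd). KLK8, also known as neuropsin, measured 12.7, 13.2 and 11.7 CPM in T-DXd libraries against 7.38, 5.81 and 6.35 CPM in vehicle libraries (0.95 ± 0.10). None of these 3 genes overlapped between T-DXd and vehicle.

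KLK6 was by far the most abundant kallikrein. It measured 1701, 1714 and 1738 CPM in T-DXd libraries, 1303, 1322 and 1319 CPM in trastuzumab libraries, and 1404, 1348 and 1377 CPM in vehicle libraries (log2 fold change 0.32 ± 0.02 with T-DXd). The gene made up 86.0 ± 0.16% of the summed kallikrein level per kilobase in T-DXd libraries and 86.0 ± 0.11% in vehicle libraries (SD, n = 3). KLK5 made up 1.40 ± 0.04% of it in T-DXd libraries and 0.268 ± 0.03% in vehicle libraries. KLK9 was scarce, at 0.685, 0.527 and 0.602 CPM in T-DXd libraries against 0.401, 0.212 and 0.151 CPM in vehicle libraries, shares 9.80% of its 75-base stretches with KLK8, and lost its place past the threshold without vehicle replicate 3 (log2 fold change 0.97, against 1.24 ± 0.39). KLK10 measured 187, 188 and 200 CPM in T-DXd libraries against 185, 176 and 176 CPM in vehicle libraries (0.10 ± 0.03), and without T-DXd replicate 3 it no longer met the threshold (0.07). KLK14 differed least, at 4.79, 4.47 and 4.04 CPM in T-DXd libraries against 4.13, 4.81 and 4.24 CPM in vehicle libraries, which overlap.

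Along the chromosomes, neighbours did not share the size of the difference. In the kallikrein cluster of chromosome 19, KLK5 lies between KLK1 and KLK6 among the listed members, whose log2 fold changes with T-DXd were 0.48 ± 0.16 and 0.32 ± 0.02. KLK7, KLK8 and KLK9, which follow, had 0.72, 0.95 and 1.24, and KLK10, KLK11, KLK13 and KLK14 had 0.02 to 0.24. In the type I keratin cluster of chromosome 17, KRT13 lies between KRT23 (0.56) and KRT15 (0.48), and KRT16 (0.97) beside KRT17 (-0.28). In the type II cluster of chromosome 12, KRT80 had the largest increase, at 0.89.

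**Figure D3:**
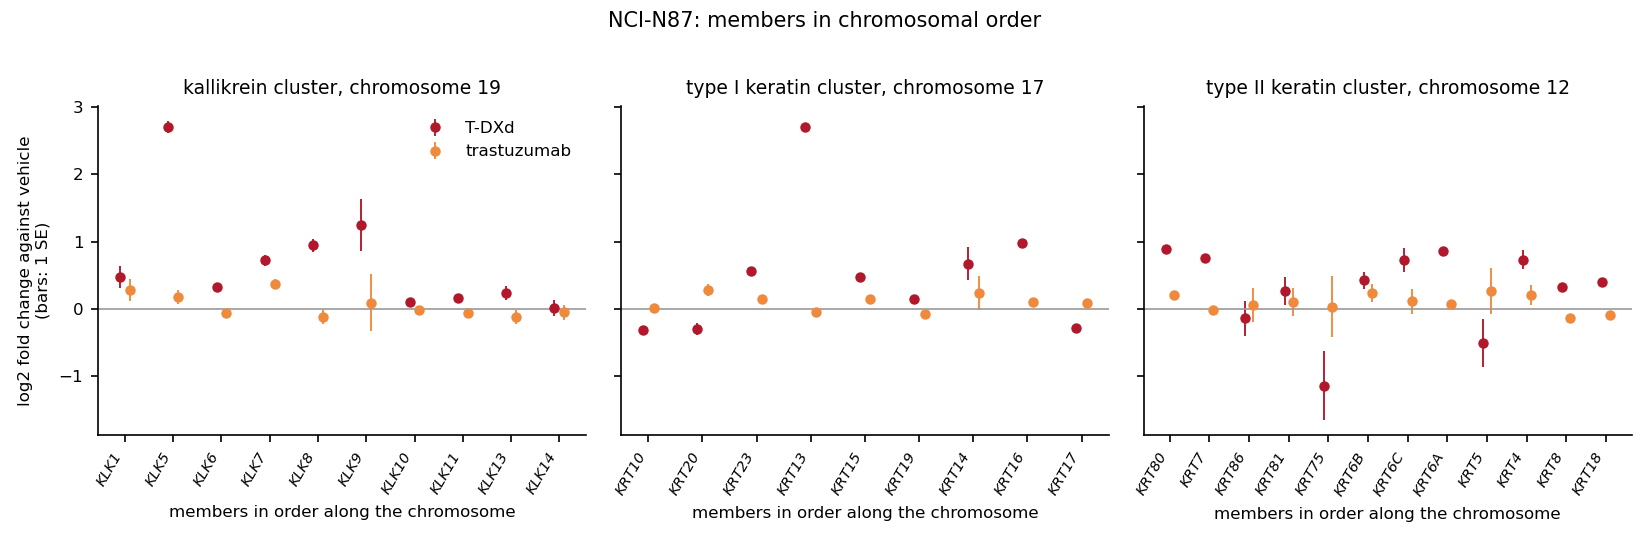
Log2 fold change against vehicle (vertical axis, bars of 1 SE) of the listed members in order along 3 gene clusters, for T-DXd (red) and trastuzumab (orange) in NCI-N87 cells. KLK5 and KRT13, both at 2.70 with T-DXd, stand above their neighbours.

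Cornified envelope genes were higher with T-DXd in 4 of 5 cases. PPL, the plakin periplakin, measured 233, 237 and 237 CPM in T-DXd libraries, 143, 140 and 137 CPM in trastuzumab libraries, and 131, 137 and 129 CPM in vehicle libraries (log2 fold change 0.83 ± 0.03 with T-DXd). Its partner EVPL, envoplakin, measured 158, 155 and 166 CPM in T-DXd libraries against 120, 127 and 121 CPM in vehicle libraries (0.38 ± 0.03). SPRR3, a small proline-rich protein of oesophageal epithelium, measured 2.90, 2.33 and 3.01 CPM in T-DXd libraries against 1.67, 1.33 and 1.44 CPM in vehicle libraries (0.89 ± 0.16). IVL, involucrin, measured 14.2, 12.1 and 14.7 CPM in T-DXd libraries, 12.4, 12.2 and 12.6 CPM in trastuzumab libraries, and 9.96, 9.60 and 9.92 CPM in vehicle libraries (0.47 ± 0.08 with T-DXd). SPRR1A, at 0.213 to 0.636 CPM in all libraries, did not meet the threshold (0.85 ± 0.38). These 3 last genes carry the AP-1 and TATA letters shown above, and their log2 fold changes with T-DXd were 0.47 to 0.89.

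Desmosomal genes went both ways. JUP, plakoglobin, was the most abundant, at 1974, 1988 and 2026 CPM in T-DXd libraries against 1653, 1635 and 1618 CPM in vehicle libraries (log2 fold change 0.29 ± 0.02). DSC2, the desmocollin of simple epithelia, measured 69.0, 68.4 and 69.1 CPM in T-DXd libraries against 81.5, 82.9 and 85.2 CPM in vehicle libraries (-0.27 ± 0.03). PKP2, plakophilin 2, measured 97.5, 97.4 and 97.8 CPM in T-DXd libraries against 109, 111 and 111 CPM in vehicle libraries (-0.18 ± 0.02). DSG2, DSP and PKP3, the desmoglein, the desmoplakin and a plakophilin found in most epithelia, had log2 fold changes of 0.02 ± 0.03, 0.03 ± 0.02 and -0.03 ± 0.03 and did not meet the threshold.

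The stratified desmosomal genes were scarce, and 2 of 4, DSG1 and DSG3, were lower. DSG1, the cadherin of the upper epidermis that KLK5 can cut in skin, measured 0.245, 0.272 and 0.481 CPM in T-DXd libraries against 0.767, 0.923 and 0.587 CPM in vehicle libraries (log2 fold change -1.18 ± 0.36). DSG3, the basal desmoglein, measured 4.53, 3.995 and 4.12 CPM in T-DXd libraries against 5.00, 5.69 and 4.78 CPM in vehicle libraries (-0.29 ± 0.11). For both genes every T-DXd library lay below every vehicle library, but DSG3 no longer met the threshold without vehicle replicate 2, T-DXd replicate 2 or T-DXd replicate 3 (-0.21 to -0.27). PKP1, the plakophilin of stratified epithelia, measured 2.54, 2.21 and 3.06 CPM in T-DXd libraries, 4.15, 4.19 and 4.88 CPM in trastuzumab libraries, and 3.17, 3.39 and 3.15 CPM in vehicle libraries. DSG4, a desmoglein of the hair follicle, measured 0.571, 0.493 and 0.791 CPM in T-DXd libraries against 0.593, 0.558 and 0.620 CPM in vehicle libraries, which overlap. Neither PKP1 (log2 fold change -0.31 ± 0.14) nor DSG4 (0.06 ± 0.25) met the threshold.

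Genes that work beside the members were counted from 4 lists, which were chosen with earlier results of these data known. With T-DXd against vehicle, 58.6% of all 17394 genes tested met the threshold, 29.1% higher and 29.5% lower. The counts from the lists are a description beside these shares. Of 31 further cornification genes 16 were tested, and 10 were higher with T-DXd and none lower. SCEL, sciellin, measured 48.4 ± 3.16 CPM in T-DXd libraries and 21.4 ± 1.76 in vehicle libraries (SD, n = 3), CDSN, corneodesmosin, 1.63 ± 0.26 and 0.626 ± 0.21, and FLG, filaggrin, 0.812 ± 0.29 and 0.264 ± 0.07, in the same order of groups. Of 20 epithelial transcription factors 18 were tested, with 10 higher and 5 lower. ELF5 averaged 1.65 ± 0.20 CPM in T-DXd libraries and 0.408 ± 0.20 in vehicle libraries, and GRHL3, a Grainyhead factor, 6.72 ± 0.07 and 3.31 ± 0.33, while TP63, the defining factor of squamous basal cells, was not listed for this line. The more abundant HNF4A, KLF5 and TFAP2A lay lower without overlap, at 38.8 ± 0.43, 168.8 ± 5.74 and 15.5 ± 1.34 CPM in T-DXd libraries. Vehicle libraries held 50.15 ± 1.00, 195.5 ± 3.72 and 21.1 ± 0.40 CPM of these 3 genes. Of 15 kallikrein inhibitors and substrates 8 were tested, with 6 higher and 1 lower, and SPINK5, a skin inhibitor of KLK5, was not listed for this line. All 9 hemidesmosome and basal cell genes were tested, and 8 were higher and none lower, among them LAMA3 with a log2 fold change of 0.75 ± 0.03. The epithelial markers summed to 1955 to 2005 CPM in T-DXd libraries against 1793 to 1822 CPM in vehicle libraries. CDH1 was higher with T-DXd (mean 721.5 against 474.3 CPM), and EPCAM and CLDN7 overlapped. CLDN4 (246.8 against 270.7 CPM), ELF3 (308.5 against 343.1 CPM) and ESRP2 (58.9 against 65.4 CPM) were lower without overlap. The mesenchymal markers summed to 65.9 to 68.1 CPM in T-DXd libraries against 27.7 to 29.2 CPM in vehicle libraries. FN1 carried this difference, at 63.5 to 65.3 CPM in T-DXd libraries against 24.5 to 26.4 CPM in vehicle libraries. VIM averaged 1.70 ± 0.13 CPM in T-DXd libraries and 2.25 ± 0.43 in vehicle libraries, ZEB1 0.767 ± 0.16 and 0.746 ± 0.27, and TWIST1 0.0787 ± 0.02 and 0.266 ± 0.07, in the same order of groups. The fibroblast gene COL1A1 measured 7.29 to 9.67 CPM in T-DXd libraries against 1.995 to 2.29 CPM in vehicle libraries. The squamous basal markers ITGA6, ITGB4 and SOX2 summed to 1139 to 1202 CPM in T-DXd libraries against 782 to 803 CPM in vehicle libraries, carried by ITGA6 and ITGB4, while SOX2 overlapped at 2.11 to 2.73 CPM in T-DXd libraries against 2.06 to 2.39 CPM in vehicle libraries. The urothelial markers moved apart without overlap. GATA3 measured 6.31 to 6.78 CPM in T-DXd libraries against 3.48 to 3.96 CPM in vehicle libraries, PPARG 66.97 to 69.2 CPM against 61.8 to 63.8 CPM, and FOXA1 21.1 to 23.6 CPM against 26.2 to 30.5 CPM, and their sum was 94.4 to 99.4 CPM in T-DXd libraries against 93.6 to 95.8 CPM in vehicle libraries. The part of these markers in the members' values was not tested.

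Trastuzumab alone moved fewer members and moved them less. Of the 52 members 12 rose and 6 fell against vehicle (edgeR quasi-likelihood test, adjusted p under 0.05), where 9.74% of all genes tested passed, 3.65% higher and 6.09% lower. The median log2 fold change was 0.10 over the members and 0.01 over all genes. The vehicle libraries are the same as in the T-DXd comparison by which the families were chosen. The p-values for members with trastuzumab are therefore not independent of that choice. The simple keratins KRT8 (log2 fold change -0.13 ± 0.01, adjusted p = 2.01e-05), KRT18 (-0.09 ± 0.02, adjusted p = 0.00178) and KRT19 (-0.08 ± 0.02, adjusted p = 0.00373) fell, whereas all 3 were higher with T-DXd. KRT80 rose (127, 127 and 129 CPM with trastuzumab against 111, 108 and 115 CPM with vehicle, log2 fold change 0.20 ± 0.03, adjusted p = 0.000289), as did KRT23 (263, 267 and 265 CPM against 241, 233 and 241 CPM, 0.15 ± 0.03, adjusted p = 0.00391). KLK7 (0.37 ± 0.08, adjusted p = 0.00711), IVL (0.34 ± 0.08, adjusted p = 0.0102) and UPK3BL2 (0.45 ± 0.06, adjusted p = 0.00018) also rose, and the summed UPK3BL1 and UPK3BL2 counts did too (0.36 ± 0.06, adjusted p = 0.000896). PKP3 fell (-0.15 ± 0.03, adjusted p = 0.00155).

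The other 9 calls with trastuzumab depended on the libraries or settings used. DSP, JUP, KLK6, KRT15, KRT20, PKP1, PKP2, UPK1B and UPK3BL1 passed the test with all libraries but not under every alternative, and 9 of the 18 called members stayed past the threshold under each. The count of called members was 10 when vehicle replicate 1 or trastuzumab replicate 3 was left out, and 11 when vehicle replicate 2 or 3 was left out. KRT20 stood at 10.98, 9.99 and 12.2 CPM with trastuzumab, the only simple keratin above vehicle there (log2 fold change 0.29 ± 0.09, adjusted p = 0.0461). The 3 leading members with T-DXd did not pass the test with trastuzumab, with log2 fold changes of 0.47 ± 0.16 for UPK2 (adjusted p = 0.0832), -0.05 ± 0.05 for KRT13 (adjusted p = 0.628) and 0.17 ± 0.10 for KLK5 (adjusted p = 0.342). UPK2 passed with DESeq2 (adjusted p = 0.0357).

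T-DXd and trastuzumab share the antibody, the dose and the time and differ in the payload. Between them, T-DXd over trastuzumab, 29 of the 52 members were higher and 9 lower, where 57.7% of all genes tested met the threshold, 28.3% higher and 29.4% lower. The median log2 fold change was 0.28 over the members and -0.02 over all genes. The 3 leading members were again UPK2, KRT13 and KLK5, whose libraries stood at 16.2 to 19.3, 117 to 125 and 23.8 to 25.6 CPM with T-DXd against 1.52 to 2.08, 17.3 to 18.8 and 3.89 to 4.52 CPM with trastuzumab. All 5 simple keratins met the threshold, 4 of them higher with T-DXd and KRT20 lower, and 3 of the 4 stratified desmosomal genes were lower. DSG1 no longer met the threshold without trastuzumab replicate 3 (log2 fold change -0.85), nor did KLK9 without T-DXd replicate 1 or trastuzumab replicate 1 (1.05 and 0.82).

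Without drug, NCI-N87 cells carried most members at far higher levels than SNU-484 cells. On a joint scale, 19 of the 20 members listed in both tables were higher in vehicle-treated NCI-N87 cells and 1 lower, where 85.2% of the 14785 genes tested differed, 41.9% higher and 43.3% lower. The median log2 difference, NCI-N87 over SNU-484, was 4.12 over the members and -0.03 over all genes. KRT8 differed most, at 4518, 4441 and 4462 CPM in NCI-N87 cells against 1.41, 1.10 and 0.892 CPM in SNU-484 cells (log2 difference 11.95 ± 0.13, adjusted p = 5.22e-18). KRT17 measured 335, 320 and 334 CPM in NCI-N87 cells against 0.192, 0.239 and 0.271 CPM in SNU-484 cells (10.44 ± 0.11, adjusted p = 3.87e-18). PKP3 (8.87 ± 0.08, adjusted p = 2.31e-18) and KLK10 (6.70 ± 0.11, adjusted p = 3.44e-16) followed. The lines were deposited in separate tables, so that line and table cannot be told apart. The NCI-N87 vehicle libraries also entered the choice of the families, so p-values between the lines are not independent of it.

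JUP, which also works in adherens junctions, was the desmosomal gene that SNU-484 cells kept at the highest level. It measured 1787, 1768 and 1746 CPM in NCI-N87 cells against 283, 285 and 288 CPM in SNU-484 cells (log2 difference 2.63 ± 0.03, adjusted p = 1.33e-17). In SNU-484 vehicle libraries it made up 93.4 ± 0.46% of the summed level per kilobase of the 6 broad desmosomal genes. UPK3BL1 and UPK3BL2 differed least in the upward direction, at 0.74 ± 0.13 (adjusted p = 8.86e-05) and 0.49 ± 0.07 (adjusted p = 6.88e-06). UPK1A was the member lower in NCI-N87 cells, at 0.207, 0.187 and 0.271 CPM against 0.680, 0.924 and 0.876 CPM in SNU-484 cells (-1.88 ± 0.26, adjusted p = 7.75e-06). The antisense gene UPK1A-AS1 is listed for SNU-484 cells. The libraries were stranded, the counting is not stated to use strand, and the part of UPK1A-AS1 in the UPK1A counts was not tested. A further 32 members, among them KRT7, KRT18, KRT19, UPK2, KRT13 and KLK5, are listed for NCI-N87 only, and DSC1 and DSC3 for SNU-484 only. No gene in either table had a count of 0 in any library, and members not listed in a line are not analysed there.

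**Figure D4:**
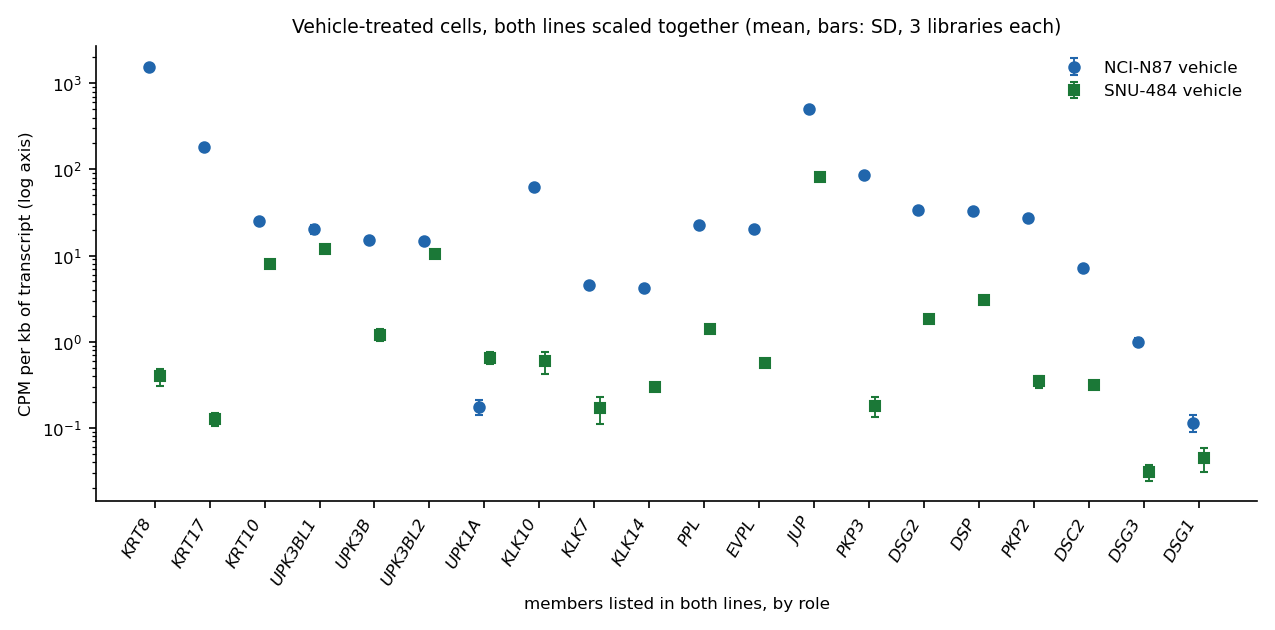
Level per kilobase of transcript (CPM per kb, log axis, mean with SD of 3 libraries) of the 20 members listed in both tables, in vehicle-treated NCI-N87 (circles) and SNU-484 cells (squares). UPK1A is the member that lies lower in NCI-N87 cells, and KRT8 has the widest gap (1563 against 0.396 CPM per kb).

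In SNU-484 cells T-DXd moved 4 of 22 members past the threshold, 2 up and 2 down, where 20.9% of the 16876 genes tested passed, 11.2% higher and 9.65% lower. The median log2 fold change was -0.04 over the members and 0.00 over all genes, and all 22 passed the filter. UPK3BL2 rose to 20.9, 19.7 and 21.1 CPM in T-DXd libraries, against 13.3, 14.7 and 14.1 CPM in vehicle libraries (log2 fold change 0.55 ± 0.07, adjusted p = 0.00143). Its copy UPK3BL1 rose to 24.1, 24.4 and 33.8 CPM in T-DXd libraries, against 14.6, 17.8 and 16.2 CPM in vehicle libraries (0.75 ± 0.14, adjusted p = 0.00665). Summed, the copies rose by 0.66 ± 0.10 (adjusted p = 0.00271), and neither copy's groups overlapped. UPK3B stood at 3.23, 3.14 and 4.44 CPM in T-DXd libraries against 2.32, 2.66 and 3.18 CPM in vehicle libraries, which overlap (0.40 ± 0.18, adjusted p = 0.141). With a block on the replicate number UPK3B passed (adjusted p = 0.0435).

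KLK10 and DSP fell. KLK10 measured 0.943, 1.04 and 0.965 CPM in T-DXd libraries against 1.27, 1.93 and 2.33 CPM in vehicle libraries (log2 fold change -0.91 ± 0.23, adjusted p = 0.0245). DSP measured 23.9, 24.9 and 19.4 CPM in T-DXd libraries against 32.5, 27.5 and 28.3 CPM in vehicle libraries (-0.37 ± 0.10, adjusted p = 0.0349). Neither gene's groups overlapped, but both calls were lost when single libraries were left out. DSP did not pass without vehicle replicate 1, 2 or 3 (adjusted p = 0.125, 0.0742 and 0.0822), and KLK10 did not pass without vehicle replicate 2 or 3 or T-DXd replicate 1 or 2 (adjusted p = 0.0575 to 0.0886). The count of called members was 2 without vehicle replicate 2 or 3.

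Among the remaining members of SNU-484 cells, KRT8 stood at 0.693, 0.477 and 1.05 CPM in T-DXd libraries against 1.40, 1.10 and 0.894 CPM in vehicle libraries, which overlap (log2 fold change -0.63 ± 0.29, adjusted p = 0.16). Without T-DXd replicate 3 its adjusted p was 0.0164. PPL stood at 10.5, 12.7 and 8.86 CPM in T-DXd libraries against 9.29, 8.56 and 8.35 CPM in vehicle libraries (0.29 ± 0.13, adjusted p = 0.139), and it passed without T-DXd replicate 3 (adjusted p = 0.00818). KRT10, the most abundant keratin of this line, stood at 15.8, 14.9 and 20.5 CPM in T-DXd libraries against 16.7, 18.1 and 16.4 CPM in vehicle libraries (0.00 ± 0.12, adjusted p = 0.987). The desmocollins listed for this line alone, DSC1 and DSC3, had log2 fold changes of -0.04 ± 0.19 and -0.25 ± 0.18 (adjusted p = 0.899 and 0.361). Of the neighbouring genes, SCEL, which was higher with T-DXd in NCI-N87 cells, fell here (-1.26 ± 0.09, adjusted p = 0.000122), and LAMA3 rose (0.97 ± 0.16, adjusted p = 0.00429).

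**Figure D5:**
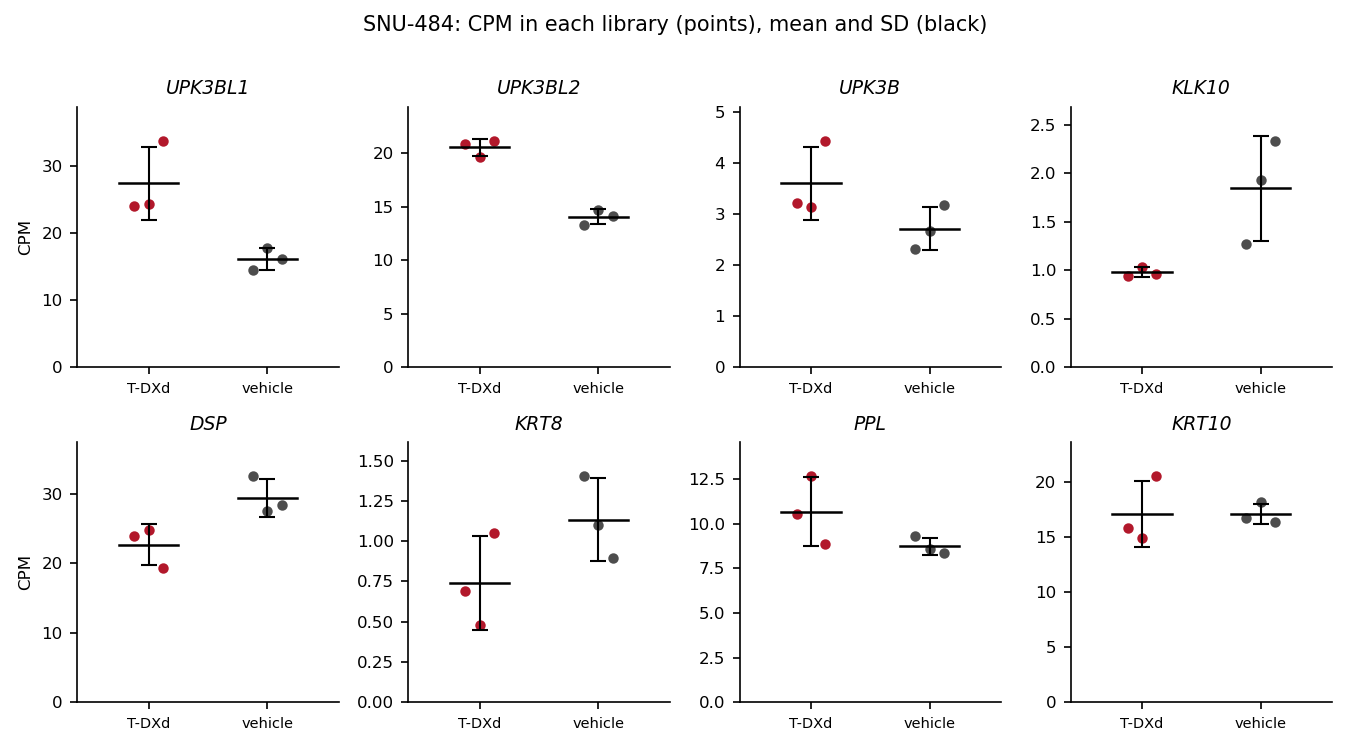
CPM (vertical axis, from 0) of 8 members in each SNU-484 library, with the mean and SD of 3 libraries in black, for T-DXd and vehicle. UPK3BL1 and UPK3BL2 are higher in all 3 T-DXd libraries (24.1 to 33.8 and 19.7 to 21.1 CPM), KLK10 and DSP lower, and the other 4 members overlap.

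The effect of T-DXd in NCI-N87 cells was set against that in SNU-484 cells for the 20 shared members. Of these, 7 had a larger log2 fold change in NCI-N87 cells and 1 a smaller one at an adjusted p under 0.05, where 41.7% of the genes tested differed, 22.3% upward and 19.3% downward. KRT8, KLK7, KLK10, PPL, UPK3BL2, DSP and JUP were the 7, with differences of 0.33 to 1.09, and DSG1 was the other, at -1.54 ± 0.44. DSG1 measured 0.339, 0.494 and 0.407 CPM in T-DXd libraries of SNU-484 cells against 0.364, 0.207 and 0.383 CPM in their vehicle libraries. These differences also use the NCI-N87 T-DXd libraries and are given as a description. UPK3BL1 and UPK3BL2 were higher with T-DXd in both lines.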

How the data were processed

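RNA was sequenced from 15 cultures (TruSeq Stranded mRNA libraries, NovaSeq). Trimmomatic 0.38 (trimming), HISAT2 2.1.0 (alignment to GRCh38) and StringTie 2.1.3b (counting) were used by the authors, as their methods and processing notes state. The annotation release is not given in the sources used here. Raw read counts, as deposited, were used here. The other per-library columns (27 in the NCI-N87 table, 18 in that of SNU-484) and the columns of the authors' own comparisons (fold changes and p-values from DESeq2) were not used.

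Counts were tested with edgeR 4.0.16 (R 4.3.3; filterByExpr, minimum count 10 and minimum total 15, TMM factors, quasi-likelihood F test), with p-values adjusted by Benjamini-Hochberg over all genes tested and a threshold of 0.05. The fits held the 9 NCI-N87 libraries (6 residual degrees of freedom), the 6 SNU-484 libraries (4), and, for comparisons of the lines, the 12 vehicle and T-DXd libraries (8). CPM values use TMM factors within a table, or over both lines where the lines are compared. Standard errors (SE) were derived from the fold change and its F statistic. The fit was tested on simulated data. Levels per kilobase use the longest GENCODE 44 transcript, and 75-base stretches shared between members were counted in GENCODE transcripts. Positions come from RefSeq, matched for 54 of 54 members.

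The members, their 9 groups and the 4 lists of other genes were chosen with earlier results of these data known. Per-library values are given for up to 3 called members per group and comparison with the largest change, for both partners of each keratin pair, and for the 2 members of each group with the highest level per kilobase in a line, 45 members in all, and for some further members chosen after their values were seen. Alternatives were RLE or upper-quartile scaling, testing unfiltered genes, a minimum of 10 counts in each library, a replicate block, only the groups compared, DESeq2 1.42.0, each library left out in turn, and, chosen after seeing the data, summed counts of near-identical genes.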

Additional observations from a re-analysis of the deposited data

Results flagged for a closer look

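For 8 of the 20 shared members the log2 fold change with T-DXd in NCI-N87 cells minus that in SNU-484 cells met the threshold (edgeR quasi-likelihood interaction, adjusted p under 0.05), where 41.7% of all 14785 genes tested did. The families were chosen by T-DXd and vehicle values of NCI-N87 cells that enter this difference, so the values are a description and no test of these members. The difference was 1.09 ± 0.29 (SE) for KLK7, 1.04 ± 0.19 for KLK10, 1.00 ± 0.22 for KRT8, 0.56 ± 0.12 for PPL, 0.52 ± 0.09 for UPK3BL2, 0.43 ± 0.11 for DSP, 0.33 ± 0.04 for JUP and -1.54 ± 0.44 for DSG1. In SNU-484 cells KLK7 lay at 0.207 to 0.433 CPM and KRT8 at 0.477 to 1.40 CPM, and in NCI-N87 cells DSG1 lay at 0.245 to 0.923 CPM with T-DXd or vehicle, near the limit of detection. UPK3BL2 was higher with T-DXd in both lines, and most of its sequence is shared with UPK3BL1, whose difference was 0.15 ± 0.18.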

How the results depend on the processing

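Alternatives were run for the members named by the rule, and among these no called member changed direction. Of the called members named, those past the threshold under each alternative that tested them were counted. In NCI-N87 cells these were 30 of 34 with T-DXd, 9 of 18 with trastuzumab and 32 of 35 between the drugs. They were 2 of 4 in SNU-484 cells and 19 of 19 between the vehicle-treated lines. With a minimum of 10 counts in each library, 17 of the 20 shared members were tested between those lines, 17 higher and 0 lower. UPK1A, the member lower in NCI-N87 cells, was not tested under that setting. With 1 library left out, called members numbered 34 to 40 with T-DXd and 10 to 18 with trastuzumab in NCI-N87 cells, 37 to 40 between the drugs, 2 to 6 in SNU-484 cells, 8 to 10 for the difference between lines, and 20 in each case between vehicle-treated lines.

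The labels do not say that a replicate number marks a shared origin, and not every same-numbered pair deviated together. Deviations of same-numbered libraries correlated at -0.018 to 0.099 in NCI-N87 cells and at 0.332, -0.129 and 0.317 in SNU-484 cells. Those of differently numbered libraries correlated at -0.121 to 0.061 in NCI-N87 cells and at -0.438 to 0.268 in SNU-484 cells. With a replicate block, 38, 17, 38, 5, 8 and 20 members were called in these 6 comparisons, against 38, 18, 38, 4, 8 and 20 without it. Members under about 1 CPM, such as KRT5, KRT14, KLK9, DSG1 and KRT75, carried the widest errors. The spread between 2 libraries of a group was measured as a chi-square per gene. It was 46.5 and 30.2 for T-DXd replicate 3 of SNU-484 cells against replicates 1 and 2, and 6.37 between those. For trastuzumab replicate 2 of NCI-N87 cells it was 45.7 and 44.2, and 5.16 between replicates 1 and 3. Without T-DXd replicate 3, 6 members were called in SNU-484 cells, against 4 with all libraries. With 3 libraries per group, small differences in SNU-484 cells may have been missed.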
